A study of Mus musculus with 4 samples.

Results

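The Slit, Robo, netrin and Dcc genes of axon guidance were followed in the cortex of mouse embryos that lack the RNA-binding protein Qk in the neural lineage. The set comprised 9 of the 23038 genes quantified, chosen by name: the ligands *Slit1*, *Slit2*, *Slit3* and *Ntn1*, and the receptors *Robo1*, *Robo2*, *Robo3*, *Dcc* and *Neo1*. Of the 38240 alternative splicing events quantified, 16 belonged to these genes. They were found by the gene number carried in the name of each event, and lay in *Slit2* (7 events), *Robo2* (4 events), *Neo1* (4 events) and *Dcc* (1 event). The files held no event for *Robo1*, *Robo3*, *Slit1*, *Slit3* or *Ntn1*.

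Slit proteins are large secreted ligands that bind receptors of the Robo family and usually repel growing axons. Netrin-1, the product of *Ntn1*, binds Dcc and the related receptor neogenin (*Neo1*) and attracts many axons, while Robo3 is best known from commissural axons, where it changes how they respond at the midline. In the developing cortex these ligands and receptors act in the growth of the corpus callosum and of thalamocortical and corticofugal tracts, and Slit and Robo also act in the division and migration of young neurons.

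Messenger RNA was measured in the cortex of E14.5 embryos. The control embryos carried floxed *Qk* alleles (*Qk* fl/fl) without Cre and are labelled wild type. The *Qk* cKO embryos carried the same alleles together with a Nestin-cre transgene, whose *Nestin* promoter drives Cre in neural progenitor cells, so that cells outside the neural lineage kept *Qk*. Each group had 2 samples, described as independent replicates from littermates, and nothing said which samples shared a litter.

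Between 37942046 and 42994832 tags per sample were assigned to genes. A tag is the unit of counting of the authors' quantification and need not be a whole number. The tags on the junction of *Qk* exons 2 and 3 were 110.6 and 128.6 per 100 tags on the junction of exons 3 and 4 in control, and 7.02 and 8.19 in *Qk* cKO. Exon 2 is the part that Cre removes. The level of the whole *Qk* gene, given as RPKM (reads per kilobase of exon, scaled to the depth of the library), was 21.1 and 21.7 for control against 32.5 and 34.2 for *Qk* cKO. *Xist*, which female cells transcribe, had a CPM (counts scaled to the depth of the library) of 1021 and 1169 in replicate 1 of control and of *Qk* cKO, and of 0.47 and 0.17 in replicate 2 of each, so each group held an embryo of each sex, and the 9 genes lie on autosomes. The 8 markers of cortical neurons were detected in all samples, with a summed RPKM of 1279 to 1383. As these are bulk samples, fewer cells of a type and less RNA per cell cannot be told apart in what follows.

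All 9 genes were detected in all 4 samples, at levels that spanned more than an order of magnitude. On the RPKM scale *Neo1* had the highest mean level, 50.4 (range over the samples 49.4 to 51.9), followed by *Slit1* (34.3, 33.1 to 36.1), *Robo1* (28.4, 27.1 to 29.0), *Robo2* (24.4, 23.8 to 25.0) and *Dcc* (21.7, 21.1 to 23.0). *Slit2* (7.64, 7.26 to 8.45), *Ntn1* (6.53, 5.70 to 7.54), *Slit3* (3.84, 3.41 to 3.99) and *Robo3* (2.10, 1.79 to 2.65) were lower. Among neighbours in this order, the ranges of *Slit2* and *Ntn1* overlapped and the other ranges did not. The order of the upper genes depended on the length of the gene. When the tags were divided by the length of the longest coding transcript in GENCODE M21 in place of the exon length in the files, a choice made after the data were seen, *Slit1* moved from rank 2 to rank 4, and *Robo1* and *Robo2* each moved up by 1 rank. On this scale *Slit1* (30.6 to 33.4) and *Dcc* (29.2 to 31.7) overlapped, and *Slit2* (9.03 to 10.5) and *Ntn1* (5.57 to 7.37) did not.

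**Figure D1:**
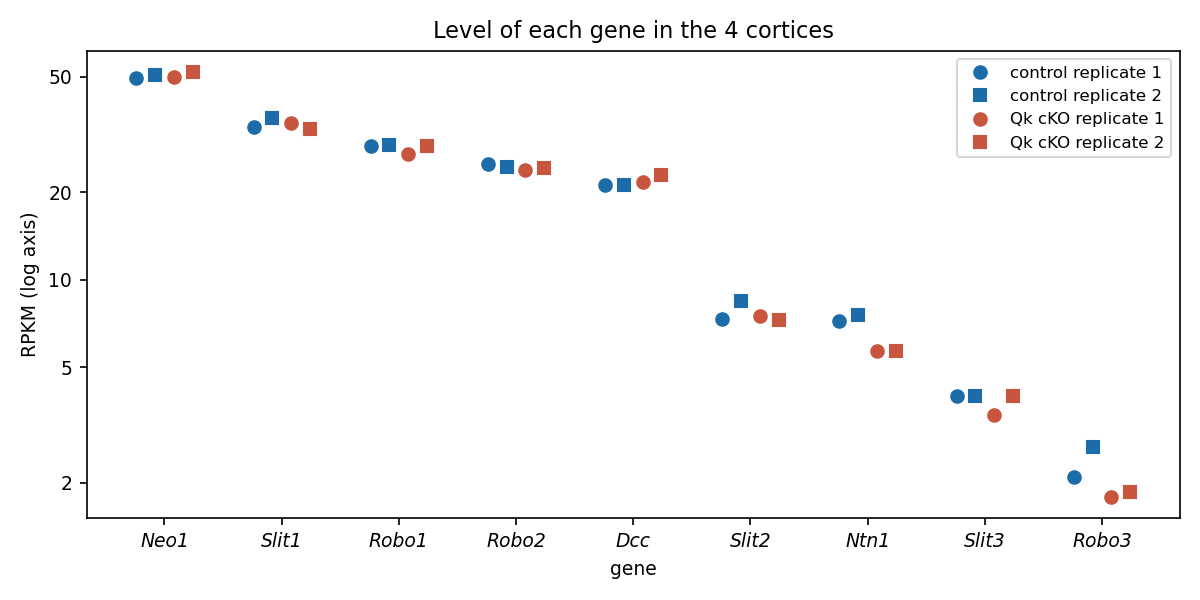
Level of each of the 9 genes in each of the 4 cortices, in RPKM on a log axis, with controls in blue, *Qk* cKO in red, replicate 1 as circles and replicate 2 as squares. *Neo1* lies near 50 in all samples and *Robo3* at about 2, and *Ntn1* and *Robo3* are lower in both *Qk* cKO samples than in both controls.

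The levels of these genes were then compared between *Qk* cKO and control, to ask whether loss of *Qk* affects their steady-state mRNA. None of the 9 genes passed the thresholds of p below 0.01 and false discovery rate (FDR) below 0.1 in the quasi-likelihood test of edgeR, fitted on the 18834 genes with at least 1 tag, in which 0.584% of genes were called (0.377% lower and 0.207% higher in *Qk* cKO). At an unadjusted p below 0.05 there were 2 of the 9, *Ntn1* and *Robo3*, both lower in *Qk* cKO, against 8.76% of all genes tested. The median log2 fold change, taken as *Qk* cKO minus control, was -0.04 over the 9 genes and -0.0025 over all genes tested. The RPKM of the groups did not overlap for 6 of the 9 genes, against 36.9% of all genes tested.

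Among the ligands, *Ntn1* (chr11:68209364-68400823, minus strand, mm10) differed most. Its RPKM was 7.18 and 7.54 in the control samples and 5.70 and 5.70 in the *Qk* cKO samples, from 1343 to 1707 tags per sample. Both *Qk* cKO samples thus lay below both controls, and the gap between the groups was larger than the spread within either. The level in *Qk* cKO was 0.781 times that in control (95% interval 0.675 to 0.905), a log2 fold change of -0.36 (SE 0.10), with an FDR of 0.199 in the edgeR test. With DESeq2 the FDR was 0.0767 and *Ntn1* passed both thresholds, the only one of the 9 genes to do so in that test. DESeq2 gave no adjusted p for *Robo3* and called 0.430% of all genes. The FDR of *Ntn1* was 0.381 with edgeR's exact test and 0.374 with the filterByExpr filter on low counts. With control replicate 2 left out the log2 fold change was -0.33 and its FDR 0.920, in a fit that called 0 of 18597 genes, with 966 at an unadjusted p below 0.05.

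The 3 Slit ligands differed less. The RPKM of *Slit1* (chr19:41600257-41743665, minus strand) was 33.5 and 36.1 in control and 34.6 and 33.1 in *Qk* cKO. That of *Slit2* (chr5:47983138-48307733, plus strand) was 7.34 and 8.45 in control and 7.52 and 7.26 in *Qk* cKO. For both genes the groups overlapped, and without control replicate 2 the fold change turned to the opposite sign. *Slit3* (chr11:35121224-35708507, plus strand) had 3.99 and 3.99 in control and 3.41 and 3.97 in *Qk* cKO, so one *Qk* cKO sample lay close to the controls. The level in *Qk* cKO relative to control was 0.981 (95% interval 0.906 to 1.06) for *Slit1*, 0.945 (0.858 to 1.04) for *Slit2* and 0.933 (0.790 to 1.10) for *Slit3*, with edgeR FDRs of 0.924, 0.819 and 0.873.

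Among the Robo genes of the set, *Robo3* (chr9:37415669-37433246, minus strand) was the lowest in level and the one that differed most. It had an RPKM of 2.09 and 2.65 in control and of 1.79 and 1.86 in *Qk* cKO, from 416 to 549 tags per sample. The groups did not overlap, but the controls lay farther from each other than the lower control lay from the *Qk* cKO samples. Its level in *Qk* cKO was 0.778 times that in control (95% interval 0.642 to 0.943), a log2 fold change of -0.36 (SE 0.13), with an edgeR FDR of 0.373. The log2 fold change was -0.18 without control replicate 2 and -0.53 without control replicate 1.

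*Robo1* and *Robo2*, the main Slit receptors of the cortex, were an order of magnitude higher. *Robo1* (chr16:72308306-73046095, plus strand) had an RPKM of 28.8 and 29.0 in control and of 27.1 and 28.8 in *Qk* cKO. *Robo2*, its neighbour on the same chromosome (chr16:73891839-74411825, minus strand), had 25.0 and 24.4 in control against 23.8 and 24.3 in *Qk* cKO. For both genes the *Qk* cKO samples lay just below the controls. The ratio of *Qk* cKO to control was 0.975 (95% interval 0.879 to 1.08) for *Robo1* and 0.983 (0.891 to 1.08) for *Robo2*, with FDRs of 0.921 and 0.951 in edgeR.

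The netrin receptors *Dcc* and *Neo1* had fold changes slightly above 0. *Dcc* (chr18:71253634-72351069, minus strand) had an RPKM of 21.2 and 21.1 in control and of 21.6 and 23.0 in *Qk* cKO, and was the only one of the 9 genes with both *Qk* cKO samples above both controls. *Neo1* (chr9:58874687-59036441, minus strand) had 49.4 and 50.5 in control and 49.9 and 51.9 in *Qk* cKO, and the groups overlapped. The ratio of *Qk* cKO to control was 1.06 (95% interval 0.963 to 1.17) for *Dcc* and 1.03 (0.924 to 1.14) for *Neo1*, with edgeR FDRs of 0.792 and 0.918.

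**Figure D2:**
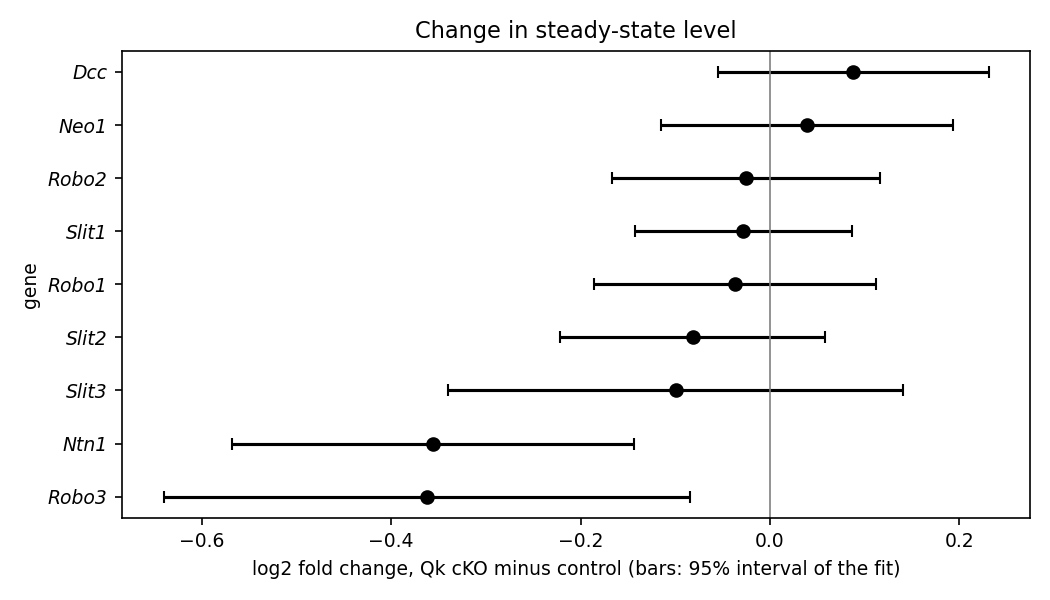
Log2 fold change of each of the 9 genes, *Qk* cKO minus control, from the edgeR fit, with bars giving the 95% interval. The intervals of *Robo3* and *Ntn1*, both at -0.36, lie below 0, and those of the other 7 genes include 0.

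Some markers of another brain region and of cell types also differed between the groups. All 12 markers of hypothalamus and diencephalon had a negative fold change. Of the 12, 7 were called lower in *Qk* cKO (*Nr5a1*, *Six6*, *Pomc*, *Lhx1*, *Nkx2-2*, *Sox14* and *Otp*), against 0.377% of all genes tested. All of these but *Otp*, and the uncalled *Irx3*, are in the study's own list of changed transcripts from these samples. The counts are therefore no independent support for a difference. The summed RPKM of the 12 was 10.1 and 19.4 in control and 7.33 and 3.57 in *Qk* cKO. *Rax* and *Nkx2-4* were at 0 in at least 1 sample. Relative to the control mean, this sum was 0.682 in control replicate 1 and 1.32 in control replicate 2, while *Robo3* was at 0.880 and 1.12, *Slit2* at 0.929 and 1.07, and *Ntn1* at 0.975 and 1.02. In *Qk* cKO replicates 1 and 2 the sum was at 0.497 and 0.242, and *Ntn1* at 0.774 and 0.774. *Robo3* was at 0.756 and 0.784 in these samples, and *Slit2* at 0.953 and 0.919. Of the 8 radial glia markers, *Fabp7* and *Slc1a3* were called lower, and 3 (*Pax6*, *Nes* and *Hes1*) had a positive fold change. The sum of the list was 1512 to 1633 RPKM in control and 1267 to 1329 in *Qk* cKO. This difference was mainly that of *Fabp7*, at 989 and 901 RPKM in control and 703 and 667 in *Qk* cKO. The part of these markers in the values of *Ntn1*, *Robo3* and *Slit2* was not tested. Of the other lists, 1 of 5 microglia genes (*Ctss*) was called lower and 1 of 4 red blood cell genes (*Beta-s*) higher. No gene was called among markers of intermediate progenitors, cortical neurons, subpallium and interneurons, Cajal-Retzius cells and cortical hem, choroid plexus, meninges or endothelium. *Fabp7* and *Ctss* are also in the study's own list of changed transcripts, so their calls are no independent support either.

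**Figure D3:**
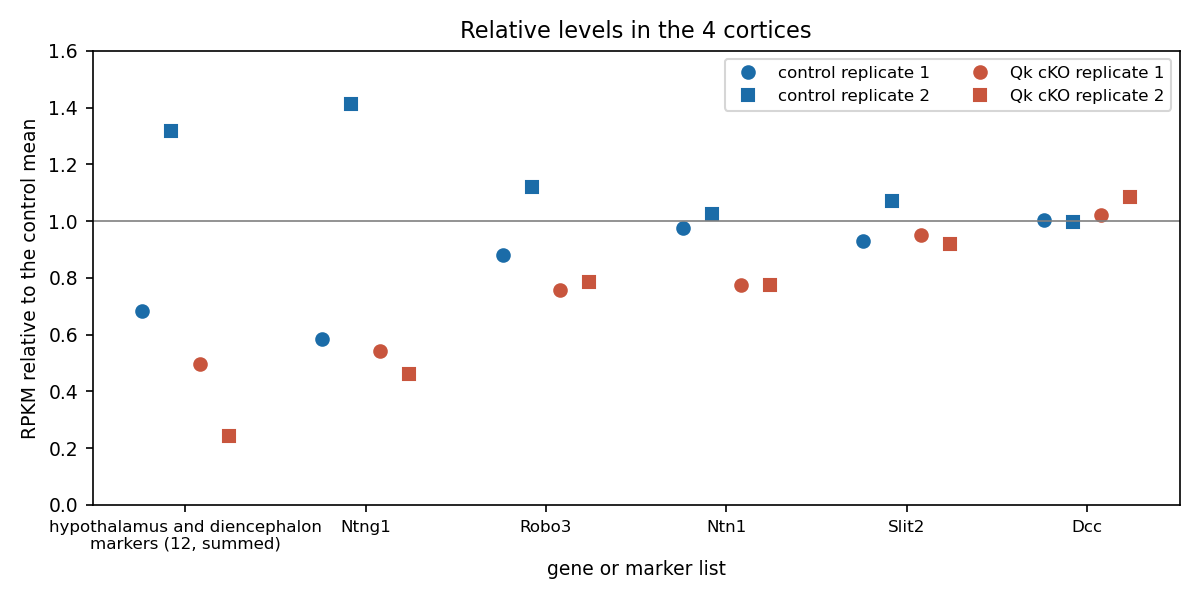
RPKM in each cortex relative to the mean of the 2 controls, for the summed 12 hypothalamus and diencephalon markers and for *Ntng1*, *Robo3*, *Ntn1*, *Slit2* and *Dcc*, with symbols as in the plot of levels. The markers range from 0.242 to 1.32 and *Ntn1* from 0.774 to 1.02.

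The genes whose pattern was most like that of *Ntn1* were sought among 12742 genes with a mean RPKM of at least 1. Likeness was the root mean square difference of log2 CPM over the 4 samples, each gene centred on its mean. The 3 nearest were *Gm16517* at 0.0050, *Luzp2*, a leucine zipper gene, at 0.014 and *Mfsd2a*, a lipid transporter of the blood-brain barrier, at 0.016. *Mfsd2a* had an RPKM of 18.5 and 19.8 in control and of 14.7 and 15.1 in *Qk* cKO. In all, 66 of the 12742 genes lay within 0.05 of *Ntn1*.

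Other genes of the same pathways or of related gene families were read from 3 lists, of 20 ligands and receptors, 11 surface cofactors and 27 intracellular signalling genes. Of these 58 genes, 0 were called higher and 0 lower in the edgeR test, with 9 at an unadjusted p below 0.05. DESeq2 also called 0, but it gave no adjusted p for some of them. *Ntng1* and *Robo4* were among these, so DESeq2 could not call them. Over all genes tested, edgeR called 0.584%, and 8.76% were at an unadjusted p below 0.05. The median log2 fold change was -0.04 for the ligands and receptors, -0.03 for the cofactors and -0.0059 for the signalling genes, against -0.0025 over all genes tested.

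Among the ligands and receptors, the smallest p belonged to *Ntng1*, which encodes the membrane-anchored netrin-G1. It had an RPKM of 1.28 and 3.08 in control and of 1.18 and 1.003 in *Qk* cKO, so its difference lay mainly in control replicate 2. That sample was also highest in the hypothalamic markers, and a link of *Ntng1* with these markers was not tested. The log2 fold change of *Ntng1* was -0.98 (SE 0.24, edgeR FDR 0.105), and -0.21 without control replicate 2. With upper-quartile scaling its FDR was 0.0844, past the threshold, but with edgeR's exact test it was 0.235 and with the filterByExpr filter 0.453. DESeq2 gave *Ntng1* a p of 0.114 and no adjusted p. The next gene in this direction was *Unc5c*, a repulsive netrin receptor, with an RPKM of 2.16 and 2.72 in control and of 2.19 and 1.65 in *Qk* cKO, so that the groups overlapped. Its log2 fold change was -0.33 (SE 0.14, edgeR FDR 0.455), but -0.57 and called without *Qk* cKO replicate 1 (FDR 0.0169), -0.13 without *Qk* cKO replicate 2 and -0.16 without control replicate 2. In the other direction the smallest p belonged to *Dscaml1*, a homologue of the netrin receptor Dscam, at 0.19 (SE 0.07, FDR 0.323), and to *Robo4*, the endothelial Robo, at 0.24 (SE 0.12, FDR 0.605).

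Among the surface cofactors, the proteoglycan gene *Sdc3* had 43.3 and 51.2 RPKM in control and 40.1 and 39.2 in *Qk* cKO, a log2 fold change of -0.24 (SE 0.07, edgeR FDR 0.226), which was -0.12 without control replicate 2. It was followed by *Dag1*, which encodes the Slit-binding dystroglycan, at -0.12 (FDR 0.672). The smallest p above 0 belonged to *Cdon*, a co-receptor related to the Robo family, at 0.15 (FDR 0.429), and to *Ext1*, an enzyme of heparan sulphate synthesis, at 0.10 (FDR 0.827). Among the signalling genes, *Usp33*, a deubiquitinase that binds Robo1, had 38.7 and 35.3 RPKM in control and 41.0 and 42.5 in *Qk* cKO, a log2 fold change of 0.19 (SE 0.06, FDR 0.231). *Pak3* was at 0.12 (FDR 0.541), *Trim9*, a ubiquitin ligase that binds Dcc, at -0.25 (FDR 0.444) and *Arhgap39*, a GTPase-activating protein of Robo signalling, at -0.10 (FDR 0.785). Without control replicate 2, the log2 fold changes were 0.12 for *Usp33*, -0.11 for *Trim9*, 0.10 for *Cdon* and 0.11 for *Dscaml1*.

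Splicing of the 9 genes was compared next, since Qk regulates the inclusion of alternative exons. Inclusion is the share of junction tags, per junction, that carry the alternative segment, and ΔI is the difference in inclusion between the groups, positive where control was higher. Tests were limited to events with a coverage of at least 20, coverage being the smallest of the junction tag sums by group and by isoform, and 11 of the 16 events met this. Each of the 11 alternative segments, in *Slit2*, *Neo1*, *Robo2* and *Dcc*, matched GENCODE M21 and had a length that was a multiple of 3, as had 56.9% of the 8133 tested events of the same 3 types. Of the 11, 10 lie within coding sequence in the annotation. The 9-nt segment of *Robo2* lies outside it. The spliced sequences of 4 segments of *Slit2* and *Neo1* are given here, because they had the largest absolute ΔI outside *Dcc*. The letters are from transcripts of GENCODE M21 (GRCm38, the same build as mm10), in the direction of the mRNA, with the alternative segment in capitals and 15 nt of the neighbouring exons in lower case.
Slit2 24-nt exon: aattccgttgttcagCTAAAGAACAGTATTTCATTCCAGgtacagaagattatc
Slit2 27-nt exon: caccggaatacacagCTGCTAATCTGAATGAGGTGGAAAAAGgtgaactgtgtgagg
Neo1 48-nt segment: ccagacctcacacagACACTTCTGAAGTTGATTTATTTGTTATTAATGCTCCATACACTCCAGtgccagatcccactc
Neo1 60-nt segment: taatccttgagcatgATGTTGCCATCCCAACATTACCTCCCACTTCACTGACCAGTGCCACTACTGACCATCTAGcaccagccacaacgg

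None of the 11 events was called by Fisher's exact test on tags summed over the replicates (p below 0.01 and FDR below 0.1 within the event type), a test that called 7.50% of the 11500 events tested. At an unadjusted p below 0.05 there were 2 of the 11, the 24-nt exon of *Slit2* and the 60-nt segment of *Dcc*, against 16.8% of all events. The edgeR test of an interaction of isoform with genotype, which takes up the spread between embryos, called 0 of the 11, with 0 at an unadjusted p below 0.05, against 0.557% and 7.17% of all events. The inclusion of the groups did not overlap for 4 of the 11 events, against 37.9% of all events. The coverage of the 11 events lay between 71.7 and 638.9 tags, and the median absolute ΔI was 0.025 over the 11 events and 0.026 over all events tested.

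The largest ΔI among the 11 was that of the *Slit2* exon of 24 nt (chr5:48220967-48220990), a microexon whose length is a multiple of 3. The control samples included it at 0.407 and 0.222, and the *Qk* cKO samples at 0.204 and 0.135. These values rest on 44.0 and 27.4 inclusion tags in control and on 32.3 and 14.6 in *Qk* cKO. Both *Qk* cKO samples lay below both controls, although control replicate 2 (95% Wilson interval 0.137 to 0.341) was closer to *Qk* cKO replicate 1 (0.130 to 0.306) than to control replicate 1 (0.287 to 0.540). Summed over the tags, control included it at 0.309 and *Qk* cKO at 0.176, a ΔI of 0.133 (95% interval 0.026 to 0.238, counting error only), with an FDR of 0.103 in Fisher's exact test and of 0.609 in the interaction test of edgeR. The exon was called when only events with a coverage of at least 50 were tested (FDR 0.0805), and when control replicate 2 was left out (ΔI 0.231, FDR 0.0326). Without control replicate 1 the ΔI was 0.046.

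The other tested exon of *Slit2*, of 27 nt (chr5:48263641-48263667), varied more within the groups than between them. Its inclusion was 0.048 and 0.228 in control and 0.291 and 0.135 in *Qk* cKO. The groups overlapped, and control replicate 1, the sample with the highest inclusion of the 24-nt exon, had the lowest inclusion of this exon. The ΔI was -0.057 (95% interval -0.159 to 0.044), with a Fisher FDR of 0.589, and its sign turned without control replicate 1 and without *Qk* cKO replicate 1.

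*Dcc* had a single event, an alternative 3′ splice site on chromosome 18 that adds or leaves out 60 nt, in the linker between fibronectin repeats of the receptor. The inclusion of the 60 nt was 0.692 and 0.764 in control and 0.772 and 0.806 in *Qk* cKO. The longer form was the major one in all samples, and both *Qk* cKO samples lay above both controls. The ΔI was -0.063 (95% interval -0.121 to -0.004), with a Fisher FDR of 0.184 and an edgeR interaction FDR of 0.707. It was called without control replicate 2 (ΔI -0.098, FDR 0.0616), and without control replicate 1 the ΔI was -0.026 (FDR 0.836).

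*Neo1*, the Dcc homologue, had 4 tested events. For the alternative 3′ splice site with a segment of 48 nt (chr9:58907047-58907094), inclusion was 0.543 and 0.619 in control and 0.651 and 0.628 in *Qk* cKO. The groups did not overlap, with a gap between them of less than the difference between the controls. The ΔI was -0.059 (95% interval -0.109 to -0.009), with a Fisher FDR of 0.323 and an edgeR interaction FDR of 0.790. Without control replicate 1 the ΔI was -0.020, and without control replicate 2 it was -0.096. For the alternative 3′ splice site with a segment of 60 nt (chr9:58931116-58931175), inclusion was 0.327 and 0.226 in control and 0.203 and 0.286 in *Qk* cKO, and the groups overlapped. The cassette exon of 33 nt (chr9:58902083-58902115) was included at 0.668 and 0.755 in control and at 0.693 and 0.687 in *Qk* cKO. The cassette exon of 159 nt (chr9:58884470-58884628) was included at 0.767 and 0.740 in control and at 0.710 and 0.769 in *Qk* cKO. In these last 3 events the controls differed from each other by more than the groups did. Their ΔI was 0.035 (95% interval -0.016 to 0.086), 0.020 (-0.028 to 0.067) and 0.014 (-0.028 to 0.057), with Fisher FDRs of 0.607, 0.749 and 0.700.

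*Robo2* had 4 tested events toward the end of the gene. The exon of 126 nt (chr16:73933046-73933171) was included at 0.483 and 0.514 in control and at 0.537 and 0.494 in *Qk* cKO. The exon of 183 nt (chr16:73906817-73906999) was included at 0.173 and 0.170 in control and at 0.193 and 0.180 in *Qk* cKO. The exon of 273 nt (chr16:73898912-73899184) was included at 0.563 and 0.554 in control and at 0.618 and 0.550 in *Qk* cKO. The groups overlapped in the first and the last of these exons, and in the exon of 183 nt the *Qk* cKO samples lay just above the controls. For the alternative 5′ splice site with a segment of 9 nt (chr16:73897007-73897015), inclusion was 0.663 and 0.634 in control and 0.664 and 0.615 in *Qk* cKO. The ΔI of the 4 events lay between -0.025 and 0.011, with Fisher FDRs of 0.781 to 0.947. Their 95% intervals, which cover counting error only, reached from -0.082 to 0.068, so a ΔI of 0.1 in either direction lay outside them. Both isoforms of each event were present in all samples.

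**Figure D4:**
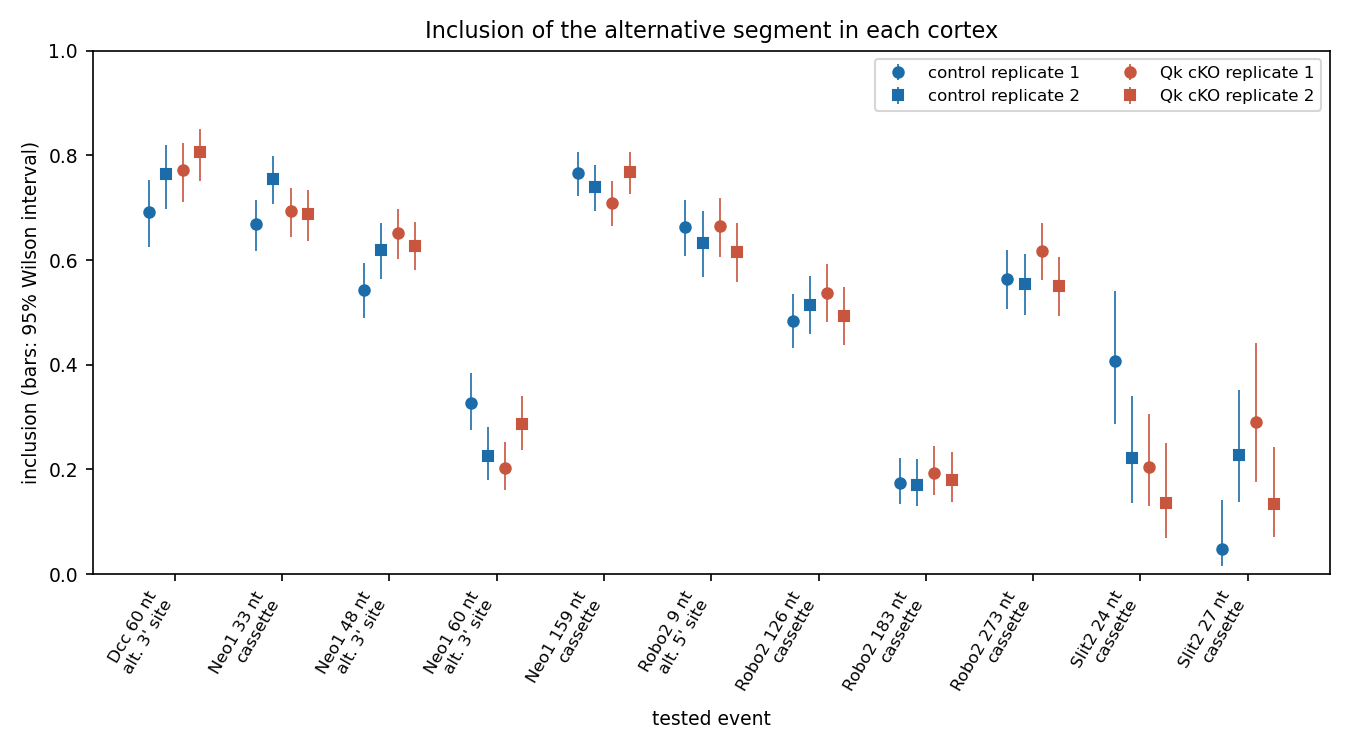
Inclusion of the alternative segment of each of the 11 tested events in each of the 4 cortices, on a scale from 0 to 1, with bars giving the 95% Wilson interval and symbols as in the plot of levels. The 4 *Robo2* events lie close together across samples, while in the 24-nt exon of *Slit2* control replicate 1, at 0.407, lies above the other samples, which lie between 0.135 and 0.222.

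The 5 events under the coverage minimum were all in *Slit2*, with coverages of 0.058 to 8.77 tags. Their inclusion was at most 0.0351, or at least 0.964, in each sample, so nearly all junction tags at these sites came from a single isoform.

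In the 3 pathway lists, 77 events in 31 genes were tested and 6 were called by Fisher's exact test, a share near the 7.50% of all events tested. Of the 6, 4 had an absolute ΔI of at least 0.1, a limit that 3.30% of all events tested met together with the call. Of these 4, 3 lie in *Evl*, an actin regulator of the Ena/VASP family, and share junction tags. The *Evl* cassette exon was included at 0.231 and 0.161 in control and at 0.049 and 0.054 in *Qk* cKO, with a ΔI of 0.147 (Fisher FDR 6.08e-87, edgeR interaction FDR 0.0095). Both *Qk* cKO samples thus lay well below both controls. The alternative 5′ splice site of *Evl* had a ΔI of 0.138 (interaction FDR 0.0042). The retained intron of *Evl* had a ΔI of the opposite sign, -0.188, which the interaction test did not call (FDR 0.683). Tags of the retained intron did not rise, at 132.7 and 115.8 in control and 95.3 and 100.5 in *Qk* cKO. Tags on its spliced junction, which is also a junction of the cassette exon, were 393.2 and 239.3 in control. In *Qk* cKO they were 90.1 and 90.1. The *Evl* RPKM was 174.4 and 181.5 in control and 172.1 and 164.1 in *Qk* cKO. The fourth was a retained intron of *Boc*, a surface receptor related to *Cdon*, with inclusion of 0.222 and 0.101 in control and of 0.066 and 0.051 in *Qk* cKO. Its ΔI was 0.103 (Fisher FDR 0.0705), and it was not called by the interaction test of edgeR (FDR 0.684) or with junction tags alone (FDR 0.632). The call was also lost without control replicate 1 (ΔI 0.042, FDR 0.693) and without either *Qk* cKO sample (FDR 0.129 and 0.173).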

How the data were processed

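Per the study's methods, the authors mapped reads with OLego (mm10 plus exon junctions) and counted tags with Quantas. The deposited files hold, per gene, an estimated count of tags and the RPKM calculated by the authors, and, per splicing event, estimated counts of the tags on each isoform and junction. Reads that genes or exons share were assigned in that step. Rounded gene tags, scaled by TMM, entered the quasi-likelihood test in edgeR 4.0.16 under R 4.3.3, and genes without any tag were left out. Events were compared with a two-sided Fisher's exact test on rounded isoform tags in SciPy 1.17.1. The Benjamini-Hochberg adjustment ran over all genes, or over all events of a type. Alternatives included DESeq2 1.42.0. Intervals of inclusion are Wilson intervals of tags per junction, those of ΔI follow Newcombe's method, and both cover counting error only. Exon positions were taken from GENCODE M21, on the build of the files. A few list genes carry older symbols in the files and were matched by gene number. The p-values of edgeR and DESeq2 rest on the spread between 2 embryos per group, moderated by the spread of the other genes. Those of Fisher's exact test cover counting error only. All 9 genes and tested events are named, and from each pathway list the called genes or else the 2 smallest p in each direction. The genes and lists were chosen with earlier results of these data known.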

Additional observations from a re-analysis of the deposited data

How the results depend on the processing

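With 2 samples per group, calls near the thresholds depended on the setting. Of the 9 genes, 1 (*Ntn1*) was called by DESeq2. In all, 110 genes were called, 57 with edgeR's exact test, 11 with the filterByExpr filter on low counts and 0 to 428 with 1 sample left out, lowest without control replicate 2 and highest without *Qk* cKO replicate 1. Of the pathway genes, 1 was called with upper-quartile scaling and 0 to 2 with 1 sample left out. Of the 11 events, 1 was called with a coverage of at least 50, also with a ΔI of at least 0.1, and 0 to 2 with 1 sample left out (0 to 1 with a ΔI of at least 0.1). In all, 862 events were called, 503 with junction tags only, 64 with the edgeR interaction test and 488 to 722 with 1 sample left out. Depth limited the *Slit2* exons most, with coverages of 118.3 and 71.7 tags.

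With the replicate number as a block, 1 of the 9 genes (*Ntn1*, FDR 0.0724), 2 pathway genes (*Sdc3* and *Ntng1*) and 192 genes in all were called, and 1 of the 11 events (the 24-nt *Slit2* exon, FDR 0.0885), also with a ΔI of at least 0.1. The labels do not pair the samples by number. The number coincided with sex, since *Xist* was high in both replicate 1 samples and low in both replicate 2 samples. A block by number therefore cannot be told apart from one by sex. The deviations of same-numbered samples from their group means correlated at 0.53 over 12958 genes, at -0.06 over the 12466 autosomal ones and at -0.01 over 11496 events.

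Leaving out 1 sample turned the sign of values that had not been called. Log2 fold changes then lay between -0.080 and 0.023 for *Slit1* and between -0.18 and 0.018 for *Slit2*. The ΔI lay between -0.022 and 0.065 and between -0.015 and 0.044 for the *Neo1* exons of 33 and 159 nt, between -0.018 and 0.083 for the *Neo1* segment of 60 nt, between -0.150 and 0.030 for the *Slit2* exon of 27 nt, between -0.039 and 0.0042 and between -0.059 and 0.0090 for the *Robo2* exons of 126 and 273 nt, and between -0.014 and 0.035 for the *Robo2* segment of 9 nt. Each such fit also held unequal shares of the sexes in the groups. The cause of the turns in sign was not tested. The other alternatives kept the sign of the 22 genes (the 9 genes, *Qk* and 12 pathway genes) and 15 events for which they were run. They were not run for single markers or for the genes like *Ntn1*.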
